A study of Mus musculus with 6 samples.

Results

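The transcripts described here encode 10 nuclear transport receptors, the exportins Xpo1, Xpo4, Xpo5, Xpo6, Xpo7, Xpot and Cse1l and the importins Ipo5, Ipo7 and Ipo9, out of 19938 genes measured in mouse fetal liver. They were taken by gene symbol from the array's annotation. Each of the 10 had 1 probe set, so the rule of keeping the brightest probe set of a gene removed nothing. The group was built around Xpo7, whose transcript was already known to be lower in the knockout of this series. The group was thus chosen by the difference of Xpo7 between genotypes, and the members' differences are given as a description with no test.

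RNA came from livers of C57BL/6J embryos at E14.5. The 3 knockout livers were Tmod3-/-, from anemic embryos with a small liver, and the 3 control livers were Tmod3+/+, from embryos recorded as normal. Each liver came from a separate embryo and was hybridised to 1 Affymetrix MoGene 1.0 ST array. Tmod3 encodes tropomodulin 3, a cap of actin filaments at their pointed ends. The sources used here do not give how the allele was made or in which cells it acts.

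Transport receptors of this family carry proteins and RNAs through the nuclear pore. The small GTPase Ran, loaded with GTP in the nucleus, makes exportins bind their cargo and makes importins release theirs. Xpo7 is abundant in red cell precursors, where it has been linked to the loss of nuclear proteins during condensation of the nucleus before enucleation. At this stage red cells form mainly in the fetal liver.

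Values are deposited levels, read as log2, on which a difference of 1 is a doubling. Tmod3 itself read 1.32, 2.36 and 1.30 in knockout replicates 1 to 3 and 4.49, 4.78 and 4.90 in wild type replicates 1 to 3, so each array matched its label. Alb (8.74 to 10.1 over the 6 arrays) and Afp (10.4 to 10.7) of hepatocytes and Tfrc (7.72 to 8.92) of erythroid cells were bright, as befits the labelled tissue (these 3 were named after their values were seen). Array medians were 1.36 to 1.43, and levels near them are close to the floor of the measurement. For the 2545 better expressed genes (mean level 3 or more), knockout minus wild type had a median of -0.25, against 0.01 over all genes. The 90th percentile of the arrays ran from 3.67 to 4.13, although the quantile step of RMA would leave it alike, and the medians are low for RMA. Whether a further step followed RMA is unknown, so the size of each difference, that of Xpo7 included, is that of the deposited values. By mean level over those 2545 genes, wild type replicate 1 stood nearer to the knockout arrays than the other wild type arrays did. That mean was 4.72, against 4.67 to 4.78 in knockout and 5.09 and 5.10 in wild type replicates 2 and 3. By correlation over all probe sets, it was the nearest wild type array to knockout replicate 1 only.

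Xpo7 was lower in every knockout liver than in any wild type liver. The wild type arrays read 5.12, 5.56 and 5.54 and the knockout arrays 4.43, 4.24 and 4.10. The groups were separated by 0.69 between the lowest wild type and the highest knockout array. The means were 5.41 ± 0.25 and 4.26 ± 0.17 (SD, n = 3 each), a log2 difference of -1.15 with a standard error of 0.15, or 2.23-fold lower. This was the 19th lowest difference of all 19938 genes, where 42 genes (0.211%) lay at -1 or below. Within 0.5 of its own level there were 498 other genes, with a median difference of -0.28. Of these, 3 had a difference as low as that of Xpo7 or lower (Golph3l, Hbb-bh1 and Pzp, named after their values were seen). Their standard errors were 0.43, 0.42 and 0.54. Knockout replicate 3 was by far the lowest array for Golph3l (2.67) and Pzp (3.12). Wild type replicate 3 was by far the highest for Hbb-bh1 (6.28). In bulk liver RNA, fewer cells of a type and less RNA per cell cannot be told apart.

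**Figure D1:**
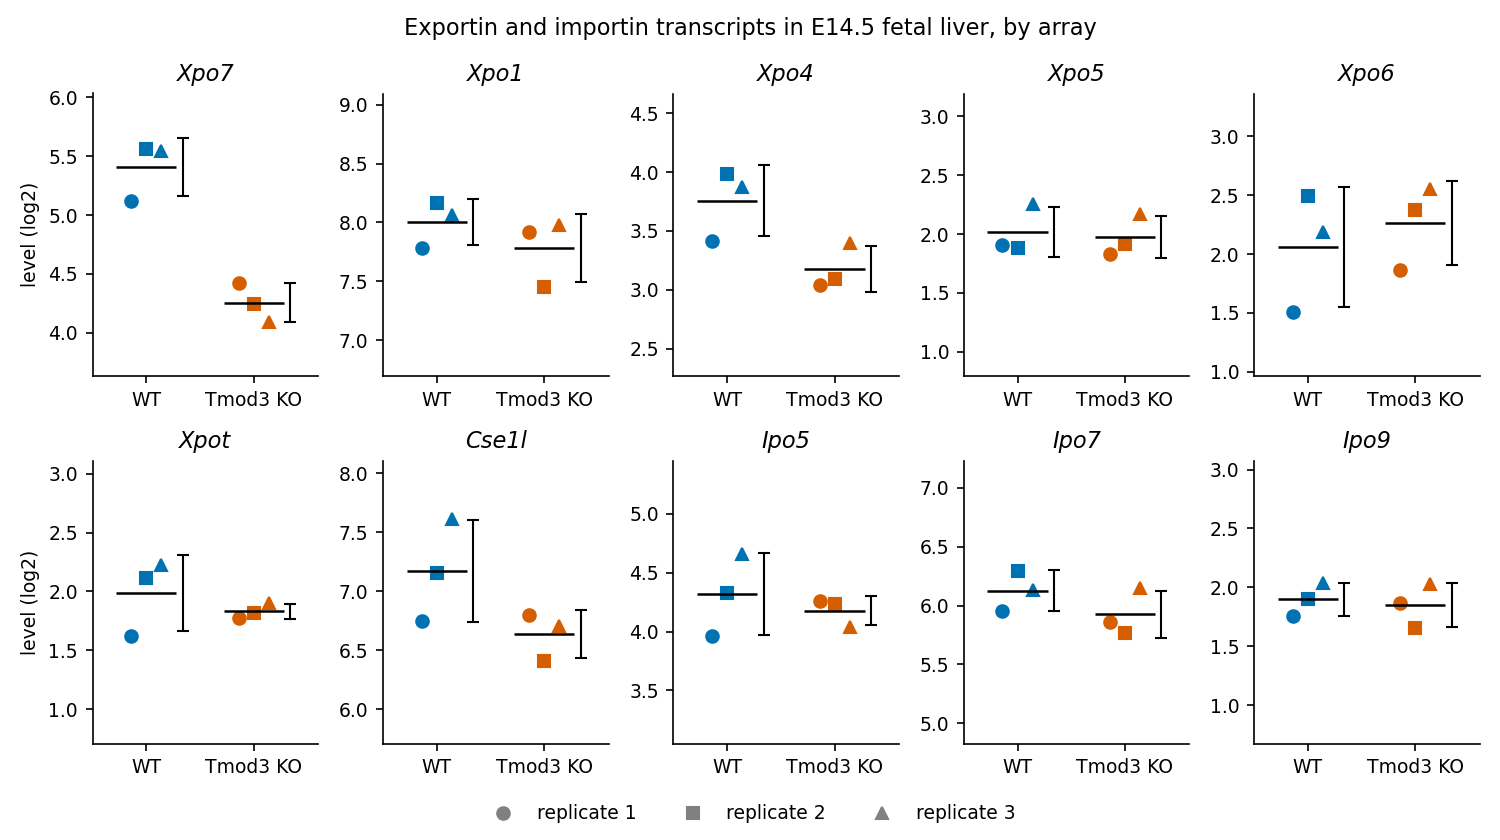
Level of each receptor transcript (log2, vertical axes of equal span) in the 3 wild type and 3 Tmod3 knockout livers; marker shape gives the replicate number, the horizontal line the group mean and the bar 1 SD. Xpo7 and Xpo4 have groups that do not overlap, Xpo4 by 0.016, and the other 8 overlap.

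Among the exportins, Xpo4 came next to Xpo7 in the size of its difference. Xpo4, an exportin for the translation factor eIF5A and for Smad3, read 3.41, 3.99 and 3.87 in wild type and 3.04, 3.09 and 3.40 in knockout liver. Its groups only just stayed apart, since knockout replicate 3 lay 0.016 below wild type replicate 1. The difference was -0.58 with a standard error of 0.17.

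Cse1l, which returns importin alpha to the cytoplasm after import, read 6.75, 7.16 and 7.62 in wild type and 6.80, 6.41 and 6.70 in knockout liver. Knockout replicate 1 lay above wild type replicate 1, so the groups overlapped, and the difference was -0.54 with a standard error of 0.21. Without wild type replicate 3, the brightest array for this gene, it was -0.32.

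Xpo1, the general exportin for proteins with a leucine-rich export signal, had a difference no larger than the spread of its knockout arrays (SD 0.29). It read 7.79, 8.16 and 8.06 in wild type and 7.92, 7.45 and 7.98 in knockout liver. Knockout replicate 2 alone lay below the wild type arrays, and the difference was -0.22 with a standard error of 0.17. Without that array it was -0.05.

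The other 3 exportins were dim, and a fall in them would be hard to see. Xpo5 exports microRNA precursors, Xpot exports transfer RNA, and Xpo6 carries actin, bound to profilin, out of the nucleus. Xpo6 read 1.50, 2.50 and 2.18 in wild type and 1.87, 2.38 and 2.55 in knockout liver. It was the only member with a difference above 0 (+0.20, standard error 0.27), and without wild type replicate 1 the difference was -0.08. Xpo5 lay between 1.83 and 2.26 over the 6 arrays and had a difference of -0.04. Xpot lay between 1.62 and 2.22 and had -0.16. In each of the 3 the groups overlapped.

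The importins had small differences between genotypes. Ipo5, an import receptor for ribosomal proteins and histones, read 3.96, 4.33 and 4.66 in wild type and 4.26, 4.24 and 4.04 in knockout liver, a difference of -0.14 with a standard error of 0.18. All knockout arrays lay inside the wild type range, and without wild type replicate 3 the difference was +0.03. Ipo7, which imports ribosomal proteins and, together with importin beta, linker histone, read 5.95, 6.30 and 6.13 in wild type and 5.86, 5.77 and 6.15 in knockout liver, a difference of -0.20 with a standard error of 0.14. Here 2 knockout arrays lay below all wild type arrays and knockout replicate 3 lay above wild type replicates 1 and 3. Ipo9, an importer of core histones and actin, was dim at 1.65 to 2.03 and had -0.05.

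The members' counts stand beside those of all genes as follows. With limma and Benjamini-Hochberg adjustment over all genes, 3 of 19938 genes (0.015%) had an adjusted p under 0.05, and 0 of the 10 members did. At an unadjusted p under 0.05, 3 members were lower (Xpo7, Xpo4 and Cse1l) and 0 higher, where 6.44% of all genes were lower, as were 26.6% of genes with a level of 3 or more. The share of all genes that were higher was 2.59%, and 2.28% of those with a level of 3 or more. Without overlap and lower were 2 of 10, where the share was 7.1% of all genes and 21.3% of those with a level of at least 3, and 0 were without overlap and higher (6.14% of all genes). Because this contrast chose the group, nothing is read from these counts. Of the 9 receptors other than Xpo7, 8 had a difference below 0, as did 48.4% of all genes and 80.6% of those with a level of at least 3. Their median was -0.16. Without wild type replicate 1, 95 genes passed and Xpo7 was among them, 6 members lay lower without overlap (17.2% of all genes), and the median of the 9 was -0.32. Without wild type replicate 2 the count of genes passed was 0 (limma, 1085 at an unadjusted p under 0.05), and without knockout replicate 1 it was 1. Without wild type replicate 3 the median of the 9 was -0.04.

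**Figure D2:**
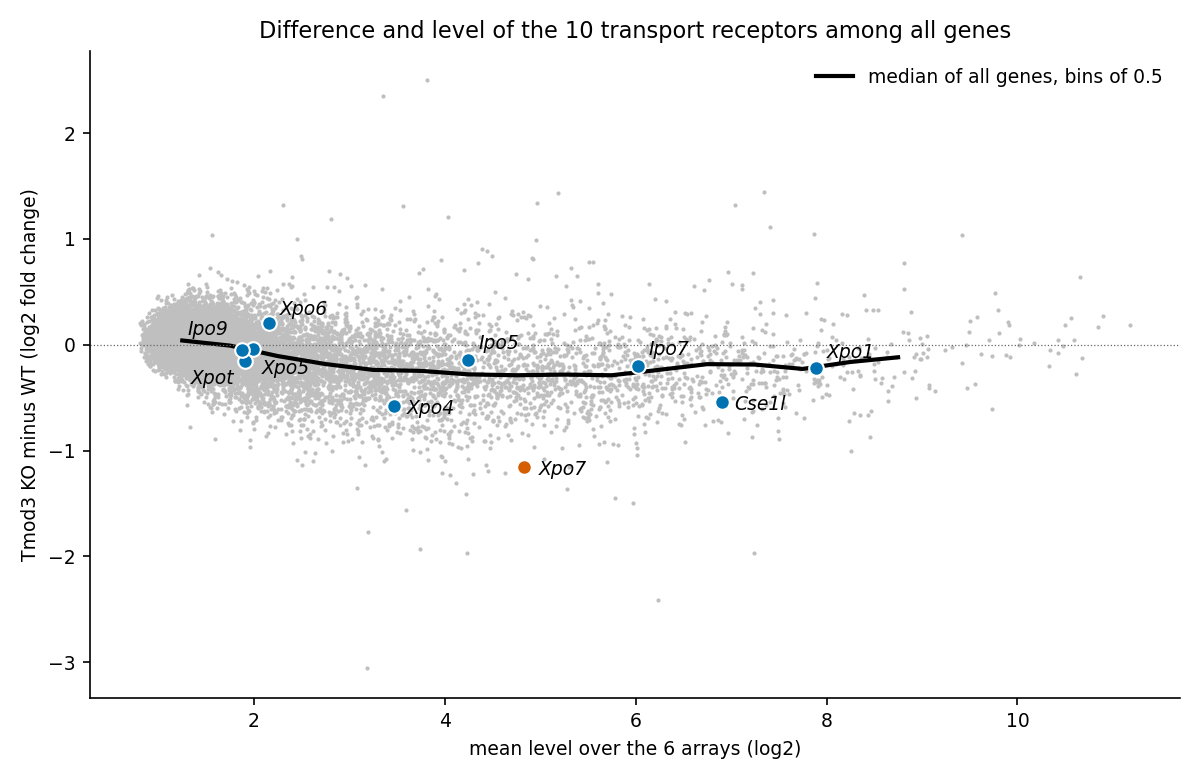
Log2 difference, knockout minus wild type, against mean level over the 6 arrays for all 19938 genes (grey), with the median in level bins of 0.5 (black line) and the 10 receptors marked. Xpo7, in orange at -1.15, lies far below the line, Xpo4 (-0.58) and Cse1l (-0.54) lie somewhat below it, and the others lie near it or above.

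Set against genes of like level, Xpo7 stood apart from 2 intermediate members and 7 others. For each, the median difference of all genes within 0.5 of its level was subtracted. Xpo7 remained at -0.87. Cse1l and Xpo4 remained at -0.35 and -0.34, with 11.8% and 13.6% of the genes of like level at or below them. The other 7 lay between -0.14 (Xpot) and 0.27 (Xpo6), with Xpo1 at -0.01 and Ipo7 at 0.06.

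Whether the lower Xpo7 level is shared by the other receptors was also described within each array. Xpo7 minus the median of the other 9 was 1.71, 1.57 and 1.68 in wild type and 1.38, 1.15 and 0.70 in knockout liver, a shift of -0.58. On all 6 arrays that median was the value of Xpo4, the receptor whose difference was nearest to that of Xpo7. With each gene first centred on its own mean over the 6 arrays, a measure added after the data were seen, Xpo7 minus the median of the 9 was 0.41, 0.48 and 0.45 in wild type and -0.27, -0.37 and -0.82 in knockout liver, a shift of -0.93. Against each of the 9 taken alone, the knockout arrays lay below the wild type arrays in 9 of 9 cases, with shifts from -0.58 (against Xpo4) to -1.36 (against Xpo6). The groups of Xpo7 itself did not overlap, so subtracting a gene that differs little leaves them apart. Xpo5, Xpo6, Xpot and Ipo9 were dim, and a fall in them would be hard to see. Against the median of the 5 others with a level of at least 3, which was Ipo7 on all 6 arrays, the shift was -0.96. So Xpo7 was lower relative to each of the other 9 receptors, and Xpo4 and Cse1l were nearest to it. No test of this difference was made, since Xpo7 was chosen for being low.

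**Figure D3:**
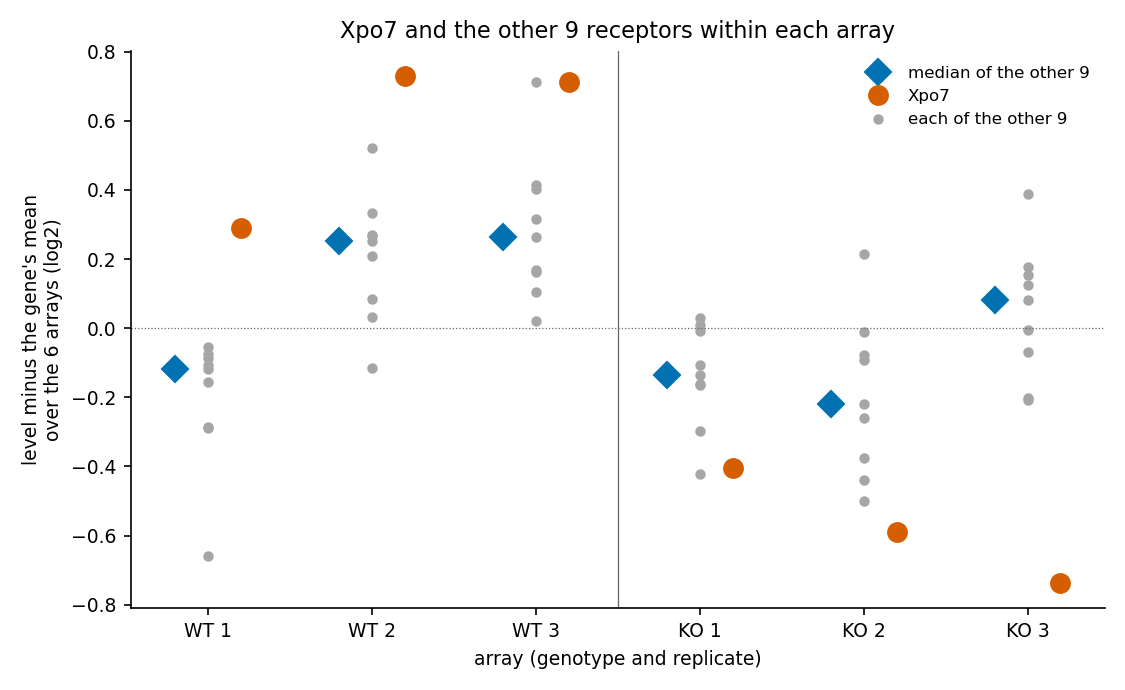
Level of each receptor minus its own mean over the 6 arrays (log2), by array; orange circles are Xpo7, blue diamonds the median of the other 9, grey points each of the 9. Xpo7 lies above the median of the 9 in each wild type array (by 0.41 to 0.48) and below it in each knockout array (by 0.27 to 0.82).

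The wider transport machinery, 37 measured genes of a list of 39 that did not enter the choice of the group, held 0 genes past the adjusted threshold (limma). At an unadjusted p under 0.05, 12 were lower and 0 higher, with a median difference of -0.19, against 0.01 over all genes. For the 16 with a level of 3 or more the median was -0.30, close to the -0.25 of all such genes. Of the 16 with a level of 3 or more, 7 were lower at that p, against 26.6% of all such genes. Of the other 21, 5 were lower, against 3.48% of all genes with a level under 3. Most of those genes were dimmer still, as 15282 of the 17393 had a level under 2, against 12 of these 21. The share of 3.48% is thus not one of genes of like level. Leaving out wild type replicate 3 brought the 12 to 4, and leaving out wild type replicate 2 or either of knockout replicates 1 and 2 brought it to 5. After the arrays were quantile normalized again the count was 6, against 4.66% of all genes and 13.2% of those with a level of at least 3.

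Of the 10 other receptors of the karyopherin beta family, 5 were lower at an unadjusted p under 0.05. They were all 3 genes of this list with a level of 3 or more and 2 of the 7 below, against shares over all genes of 26.6% and 3.48%. The share of 3.48% is mostly of genes with a level under 2, where 5 of these 7 lay. Ipo11 had a difference of -0.53, Tnpo3, which imports splicing factors rich in serine and arginine, -0.49, Tnpo1, the import receptor of many RNA-binding proteins, -0.46, and Ipo8 -0.42 (limma adjusted p from 0.401 to 0.484). Ipo8 was dim, at 1.75 to 1.79 in knockout and 1.99 to 2.45 in wild type liver, so the size of its difference is uncertain. The remaining gene of the 5 was Kpnb1, importin beta itself, at -0.32 (named after its value was seen). Of all genes within 0.5 of its level, 43.9% lay at or below Kpnb1. That share was 25.5% for Tnpo1, 19.1% for Tnpo3, 9.44% for Ipo11 and 4.24% for Ipo8. Ranbp17, the closest relative of Xpo7, read 1.40, 1.95 and 1.71 in wild type and 1.62, 1.46 and 1.26 in knockout liver. These values lie at the floor, so a difference in Ranbp17 was not measurable here.

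The importin alpha adaptors, which link cargo to importin beta, held 3 of 7 genes lower at an unadjusted p under 0.05, against 6.44% of all genes. Both genes of the list with a level of 3 or more were among them, against 26.6% of all such genes. Kpna3 and Kpna2 had differences of -0.56 and -0.55 and Kpna1 -0.54, while Kpna6 had -0.22 (limma adjusted p from 0.431 to 0.768). Kpna2 was covered by 3 probe sets, and the dimmer ones gave -0.35 and -0.42. Cse1l, the exportin that recycles these adaptors, had -0.54.

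Genes of the Ran cycle went both ways, with a median of 0.05 over 7 measured genes. Rangap1, which makes Ran hydrolyse GTP, had -0.32 and Ranbp1, its cofactor in the cytoplasm, -0.38, both lower at an unadjusted p under 0.05, against 6.44% of all genes (limma adjusted p = 0.408 and 0.418). Of the 3 genes of this list with a level of 3 or more, 1 was lower at that p (Ranbp1), against 26.6% of all such genes. Rcc1, the exchange factor that loads Ran with GTP, had +0.11 and Rangrf +0.14. Rangrf was covered by 3 probe sets, and the dimmer ones gave -0.07 and -0.06, so its direction depends on the probe set. The list median rests in part on that choice. Rangap1, Rcc1 and Rangrf read under 2 on every array. Ran itself, named after its value was seen, read 7.48 to 7.84 and had +0.05.

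Among 13 adaptors and factors of RNA export, 2 were lower at an unadjusted p under 0.05, against 6.44% of all genes. Of the 8 with a level of 3 or more, 1 was lower, against 26.6% of all such genes. The 2 lower genes were Nxf1, the main receptor for messenger RNA export, at -0.43, and Nxt2, a partner of that family, at -0.60 (limma adjusted p = 0.527 and 0.484). Thoc1, of the complex that couples transcription to export, had -0.48 and Ncbp2, of the nuclear cap-binding complex, -0.29, with unadjusted p of 0.057 and 0.055.

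**Figure D4:**
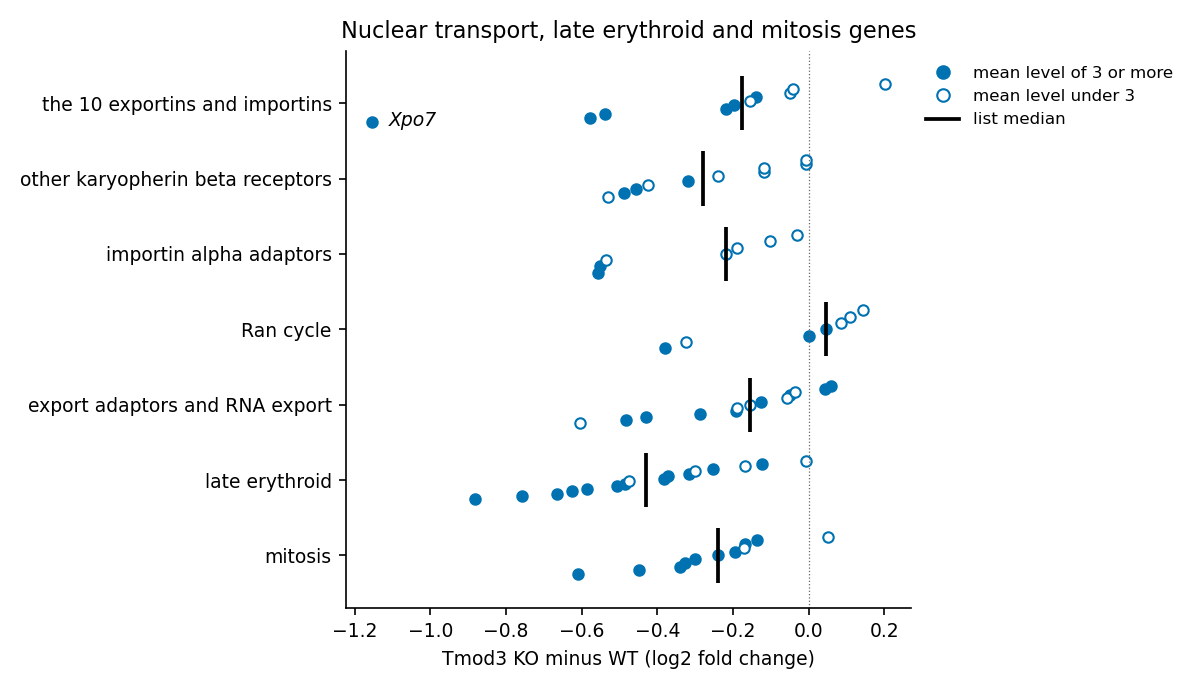
Log2 difference, knockout minus wild type, of single genes in 7 lists; filled points have a mean level of 3 or more, open points a lower one, and black bars are list medians. Xpo7 (-1.15) lies below every gene of the 4 other transport lists and below all late erythroid genes, of which Trim10 (-0.88) is the lowest.

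Late erythroid markers stood lower in knockout liver beside Xpo7. All 16 measured genes of that list had a difference below 0, as did 80.6% of all genes with a level of 3 or more, with a median of -0.43 and a range from -0.88 (Trim10) to -0.01 (Tspo2), both named after their values were seen. At an unadjusted p under 0.05, 8 of 16 were lower, 7 of them among the 12 with a level of at least 3, where the shares were 6.44% of all genes and 26.6% of those with such a level, and 0 passed the adjusted threshold (limma). The mean over the list was 4.24, 4.37 and 3.97 in knockout and 4.39, 4.71 and 4.77 in wild type replicates 1 to 3. Knockout replicate 2 lay only slightly below wild type replicate 1. Xpo7 minus this mean was 0.19, -0.12 and 0.13 in knockout and 0.73, 0.85 and 0.78 in wild type liver, a shift of -0.72. Thus Xpo7 was lower relative to the list in every knockout array. The part that the late erythroid cells have in the Xpo7 value was not tested.

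Markers of cycling cells had a median of -0.24 over 11 genes, with 3 lower at an unadjusted p under 0.05, all among the 9 with a level of 3 or more, and list means of 4.88 to 5.11 in knockout and 5.06 to 5.44 in wild type liver. These are close to the 26.6% and the median of -0.25 of all genes of such a level. The 10 hepatocyte markers had a median of -0.62 and list means of 6.18 to 7.12 against 7.06 to 7.55, with knockout replicate 3 the lowest. Of these, 5 were lower at an unadjusted p under 0.05, all among the 9 with a level of 3 or more, and 0 passed the adjusted threshold (limma). The shares were 6.44% of all genes and 26.6% of those with such a level. The 9 had a median of -0.64, against -0.25 for all genes of such a level. Apoh (-1.24) and Ahsg (-1.15), named after their values were seen, had differences as large as that of Xpo7. Their standard errors were 0.35 and 0.45, against 0.15 for Xpo7. Ahsg read 5.09, 5.58 and 3.51 in knockout and 5.98, 5.81 and 5.86 in wild type replicates 1 to 3. Much of its difference thus came from knockout replicate 3. The 10 macrophage markers had a median of -0.24 (list means 1.68 to 2.10 against 1.96 to 2.42), and 5 of them had a mean level under 2. The 5 megakaryocyte markers (3.59 to 4.14 against 3.98 to 4.20), the 6 endothelial markers (1.82 to 1.99 against 1.81 to 1.84) and the 5 neutrophil markers (1.70 to 1.88 against 1.69 to 2.14) overlapped between genotypes. Their part in the Xpo7 value was not tested.

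Genes with the pattern most like that of Xpo7 were sought among 2514 genes with a level of 3 or more, by Pearson's r over the 6 arrays. The arrays fall into 2 genotype groups for Xpo7, so any gene that differs between genotypes scores high, and r is given as a description. The 5 highest were Gnl2, a nucleolar GTPase (r = 0.996), Arpc5, a subunit of the Arp2/3 complex that branches actin filaments (0.995), F10, coagulation factor X (0.991), Ak3, a mitochondrial adenylate kinase (0.991), and Hpgd, the prostaglandin dehydrogenase (0.989). Their differences were -0.35, -0.72, -0.83, -0.31 and -1.41. Among the members, Xpo4 had the highest r with Xpo7 (0.851, which would rank 398 among these genes), and Cse1l had 0.811. With the group means removed, the 5 highest were Acsl5, Aida, Brd8, Mob1a and Xrcc5 (r from 0.989 to 0.994), none of them among the first 5, and the member with the highest r was Ipo5 (0.839). With 6 arrays and 2514 genes searched, a high r is easily reached, so these values too are a description. Among wild type arrays Xpo7 was lowest in replicate 1, as was the mean of all genes with a level of 3 or more (4.72, against 5.09 and 5.10).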

How the data were processed

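The deposited table holds 1 log2 value per probe set and array, made by the authors with RMA (version not given), per the submitters' processing notes. The log base was read from the range of the values, and a step after RMA is possible but not recorded. Of 28853 probe sets, 21789 had 1 gene symbol in the platform annotation, and the brightest per gene gave 19938 genes. Differences, standard errors and p-values came from limma 3.58.1 in R 4.3.3 (lmFit, eBayes, 3 against 3 arrays, two-sided, Benjamini-Hochberg over all genes, threshold 0.05), tested on simulated data. No dim gene was left out. The members and gene lists were chosen with earlier results of these data known. Members, Tmod3, Ranbp17, up to 4 genes of each transport list by smallest p, and the 5 genes most like Xpo7 were named by rule, and other genes are said to be named after their values were seen. Of the listed genes, Gp1bb, Ccnb1, Nutf2, Ddx19a and some erythroid genes were not analysed here. Whether same-numbered arrays were paired is unknown, and the main fit used no pairing. Their deviations from group means correlated at 0.15, -0.10 and -0.09 over genes with a level of 3 or more. Those of differently numbered arrays correlated at -0.12 to 0.20. Arrays have no read depth, and their number limits the precision.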

Additional observations from a re-analysis of the deposited data

How the results depend on the processing

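Xpo7 had the lowest difference of the 10 receptors under all 11 alternatives that recomputed it. Among these, the replicate block, centring on the array median and averaging a gene's probe sets could not change the order. They leave the members' differences as they are or shift all of them by the same amount. Xpo7 was also chosen for being low, so its place is a description. Leaving out 1 array gave -1.30 to -1.07, and quantile normalizing the arrays again gave -0.92, at which the median of the 9 others was -0.01. Xpo7 minus the median of the 9 was -0.73 to -0.39 when 1 array was left out, and -0.93 with each gene centred first. The count of 3 genes passing became 6 after renewed quantile normalization, 11 with array weights and 0 with the replicate block (limma, 1787 at an unadjusted p under 0.05). Leaving out 1 array gave 0 to 95. The 12 lower transport genes became 11 with the replicate block, 6 after renewed quantile normalization, 7 of 25 when only genes with a level of at least 2 were kept, 6 with an intensity trend and robust fitting, and 4 to 15 when 1 array was left out. The cause of these changes was not tested, save that the level limit leaves fewer genes. Xpo7 passed the adjusted threshold without wild type replicate 1 and with array weights. It did not pass in the main fit or in the other alternatives that recomputed its difference. Because this difference chose the group, nothing is read from either outcome. Ipo7, at -0.20, was 0.00 after renewed quantile normalization, and Ipo5 was then +0.08.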

Other observations

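The protein-coding genes next to Xpo7 on chromosome 14, in the gene order of GRCm38.p6, were mostly at the floor of the array. Of 9 measured genes among the 6 nearest on each side, Npm2, Fgf17, Dok2, Gfra2, Hr, Nudt18 and Fam160b2 read under 2 on every array. Dmtn, which encodes dematin of the red cell membrane skeleton, read 2.67, 3.51 and 2.70 in knockout and 3.16, 3.54 and 3.44 in wild type liver, with overlapping groups and a difference of -0.42. Fndc3a had +0.06. These genes were chosen after the Xpo7 values were seen.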
